A study of Drosophila melanogaster with 4 samples.

Results

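Isolated compact RNA polymerase II regions were narrow stretches of polymerase binding that stood alone on the large autosome arms of a fly cell line. They were selected on values measured in the same data: a width of at least 2000 and under 8000 bp in the region list made for the series as a whole, an overlap with a region of each ChIP replicate, and at least 20 kb without another enriched region on either side. Outermost regions of an arm were left out. The rule held for 244 regions, which is 4.42% of the 5517 enriched regions of the series list and 8.57% of the 2846 compact regions, meaning those of the same width on 2L, 2R, 3L and 3R that overlapped both replicates. The 2602 other compact regions, with a neighbour closer than 20 kb on at least one side, are the comparison used below. The members, widths and distances all came from these lists, and so did the scores. Differences between the groups are therefore given as descriptions, with their spread over the 2 replicates, and were not tested.

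The study mapped RNA polymerase II by chromatin immunoprecipitation and sequencing (ChIP-seq) in CME-W1-Cl.8+ cells. This Drosophila melanogaster line, also called Clone 8, is male and was derived from the dorsal mesothoracic disc, the tissue that forms the wing, at the third instar larval stage. The antibody, the mouse monoclonal ab5408, binds the YSPTSPS repeat of the polymerase's largest subunit. The 4 samples were 2 ChIP replicates and 2 input DNA libraries. All came from the one line, no genotype or treatment was contrasted, and whether the replicates were separate cultures is not stated, so the spread between them may be technical.

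RNA polymerase II transcribes all protein-coding genes, and its largest subunit carries a long tail of heptad repeats that is phosphorylated as the enzyme starts and elongates. In Drosophila, polymerase often accumulates just downstream of the start site before it is released into the gene body, which gives a narrow ChIP signal, while polymerase spread along an active gene gives a wider one. Fly genes are unevenly spaced: housekeeping genes tend to lie in dense groups, and many developmental genes are surrounded by long stretches of noncoding DNA. Which gene, if any, underlies each region is not given here, because no gene annotation on that genome build was used. For the same reason the cells were not checked against marker genes of the wing disc.

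The score is the value that the authors deposited for each region. It was read as a log2 ratio from the values alone, so that 1 unit is taken as a 2-fold step. What is divided by what is not stated in the sources used here. The lists give no counts of reads, and the depth behind each score is unknown. Positions refer to FlyBase r5. Where several replicate regions overlapped a member, the score is their mean weighted by width, and ± is the SD of the 2 replicates throughout.

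Compact regions that stood alone were narrow and more often strong. Their median score was 1.32 in replicate 1 and 1.36 in replicate 2 (1.34 ± 0.03, n = 2). The other compact regions had medians of 1.17 and 1.18 (1.18 ± 0.007), and those of all compact regions were 1.18 and 1.19. The difference of the medians was 0.14 in replicate 1 and 0.18 in replicate 2, a mean of 0.16 ± 0.03 or a 1.12-fold step. This difference was larger than the spread of the medians between replicates, which does not measure the variation among regions. In replicate 1 the isolated scores ran from 0.84 at the 25th percentile to 1.95 at the 75th. With 40 kb in place of 20 kb as the least distance, the difference was 0.053.

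The upper part of the range differed more than the lower part. At the 75th percentile isolated regions scored 0.30 higher in replicate 1 and 0.39 higher in replicate 2, and at the 95th percentile 0.27 and 0.24 higher. At the 25th percentile the differences were 0.04 and 0.07, and at the 5th they were 0.02 and 0.03. Taking the mean of both replicates, 66 of the 244 isolated regions (27.0%) scored at least 2, a ratio of 4, compared with 16.5% of all compact regions. In single replicates the share of isolated regions at or above 2 was 24.2% in replicate 1 and 30.7% in replicate 2, and among the other compact regions it was 13.9% and 17.1%. The isolated share in replicate 1 thus lay above the other regions' share in either replicate.

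Ranking all compact regions by their mean score gave a similar picture. In each of the lower 8 deciles of the ranking, isolated regions made up 6.32% to 8.42%. They made up 12.0% of the ninth decile and 14.7% of the highest, which began at a score of 2.24. Among the 100 highest compact regions 19 were isolated. The very top was held by others: 8 compact regions with a closer neighbour scored above every isolated one.

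**Figure D1:**
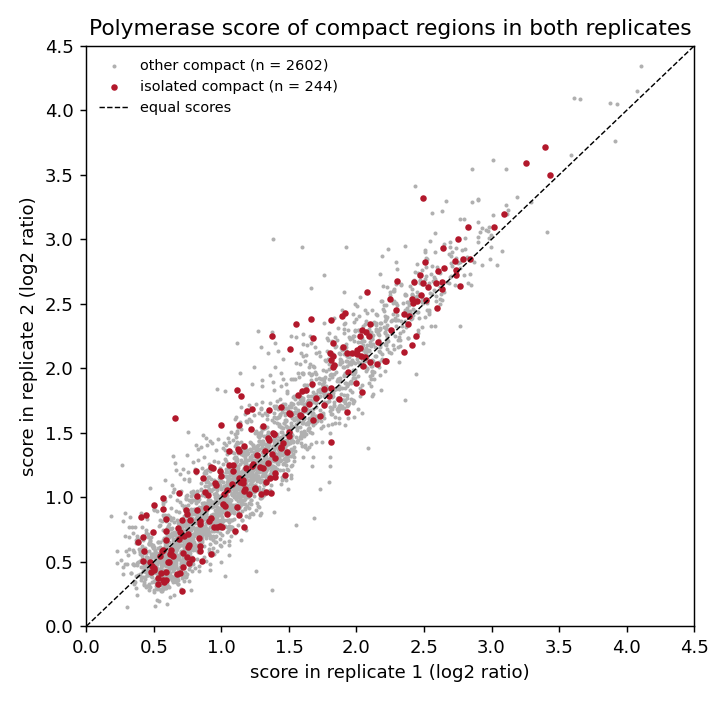
Score of each compact region in replicate 1 (horizontal) and replicate 2 (vertical), both as log2 ratios, with 244 isolated regions in red, 2602 others in grey and a dashed line at equal scores. Isolated regions span most of the range, from 0.38 to 3.44 in replicate 1 and from 0.27 to 3.72 in replicate 2, and lie along the line with a tendency above it at high scores.

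The strongest isolated region lay on 3L (1462422 to 1465238), was 2817 bp wide and scored 3.40 in replicate 1 and 3.72 in replicate 2. Its mean of 3.56 ± 0.23 is a ratio of 11.8 if no constant was added to the score, and its neighbours were 94.2 kb and 30.0 kb away. A 3583 bp region on 2R (15613162 to 15616744) followed with 3.44 and 3.50, between gaps of 54.0 kb and 96.3 kb. The replicates thus differed by 0.32 in the first and by 0.07 in the second. The third, 2507 bp on 2L (900262 to 902768), scored 3.26 and 3.59 and had 173.8 kb of empty sequence on its right side.

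The next 3 in rank were all under 2500 bp wide. On 3L, 2403 bp (15227602 to 15230004) had scores of 3.09 and 3.20. On 2R, 2373 bp (13151868 to 13154240) had 3.02 and 3.09. On 3R, 2493 bp (16738892 to 16741384) had 2.83 and 3.09. All 3 were thus within 500 bp of the least width the rule allowed.

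The seventh region differed in width and in agreement. It spanned 6827 bp on 3L (6250910 to 6257736) and scored 2.49 in replicate 1 and 3.32 in replicate 2, so that its SD of 0.59 was the highest of the 10 strongest. The remaining 3 were on 3R. Their scores were 2.75 and 3.00 over 2377 bp (11490800 to 11493176), 2.84 and 2.85 over 4681 bp (22359068 to 22363748), and 2.79 and 2.85 over 2719 bp (10521472 to 10524190). Of these, the 4681 bp region had the emptiest surroundings, with 70.6 kb to its left and 175.0 kb to its right.

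The weakest members were also among the narrowest. A 2001 bp region on 2R (4214018 to 4216018) had the lowest mean, 0.43 ± 0.14, with 0.53 in replicate 1 and 0.33 in replicate 2. Of the next 4, 3 were on 3R: 2001 bp (14191318 to 14193318) with 0.48 and 0.42, 2033 bp (1774150 to 1776182) with 0.53 and 0.38, and 2029 bp (25443904 to 25445932) with 0.56 and 0.36. The remaining one, 2011 bp on 2L (14262062 to 14264072), scored 0.57 and 0.34. All 5 scored lower in replicate 2. Their means correspond to ratios of 1.35 to 1.38.

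Isolated regions were concentrated at the narrow end. Their median width was 2329 bp, against 2995 bp for the other compact regions, and 148 of the 244 (60.7%) were 2000 to 2500 bp wide, upper limits of classes being left out here and below. Among the other compact regions 34.2% fell in that class. Read the other way, 14.3% of compact regions of 2000 to 2500 bp were isolated, and 4.78% to 6.19% in the wider classes. Among all compact regions, width already fell with distance below the 20 kb limit. The median was 3234 bp with the nearer neighbour within 2 kb and 2503 bp at 10 to 20 kb. At 20 to 40 kb it was 2334 bp, so narrowness was not particular to isolated regions. Since width was part of the rule, these values describe what the rule found.

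**Figure D2:**
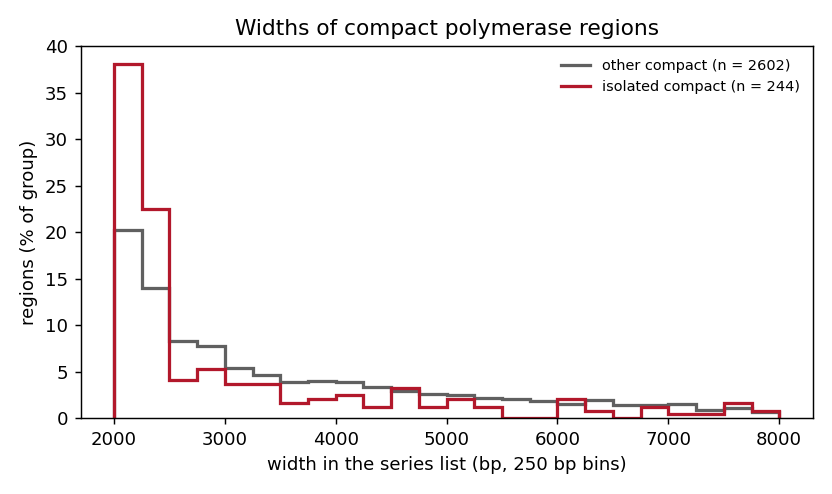
Share of isolated (red) and other (grey) compact regions, in percent of each group, by width in the series list in bins of 250 bp. The red line is higher in the narrowest bins, and 60.7% of isolated against 34.2% of other compact regions were under 2500 bp wide.

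The difference in score was not alike across width classes. Among regions of 2000 to 2500 bp the median score of isolated regions was 1.13 in replicate 1 and 1.17 in replicate 2, against 0.85 and 0.87 for the others, a difference of 0.29 ± 0.02. From 2500 to 3000 bp it was 0.52 ± 0.09, with 23 isolated regions. From 3000 to 4000 bp it was 0.19 ± 0.08 (27 isolated regions), and from 4000 to 6000 bp it was 0.46 ± 0.07 (28). For the 18 isolated regions of 6000 to 8000 bp the medians were 1.42 and 1.50 against 1.42 and 1.46, a difference of 0.02 ± 0.03 that did not exceed the spread between replicates. These spreads do not measure the variation among the regions of a class, and isolated regions were few in the wider classes.

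The share of strong regions differed by width in the same way. A mean score of at least 2 was reached by 35 of the 148 isolated regions under 2500 bp (23.6%, against 13.9% of the others). It was reached by 10 of 23 from 2500 to 3000 bp (43.5% against 15.8%), 9 of 27 from 3000 to 4000 bp (33.3% against 16.8%) and 10 of 28 from 4000 to 6000 bp (35.7% against 15.6%). From 6000 bp the order was the other way, with 2 of 18 isolated regions (11.1%) and 18.3% of the others. Score and width had a Spearman's rho of 0.487 among isolated regions (244 regions of the same libraries) and 0.370 among the other compact regions. The medians of isolated regions did not rise steadily from class to class. Within the narrowest class alone, mean scores of isolated regions ran from 0.43 to 3.15.

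**Figure D3:**
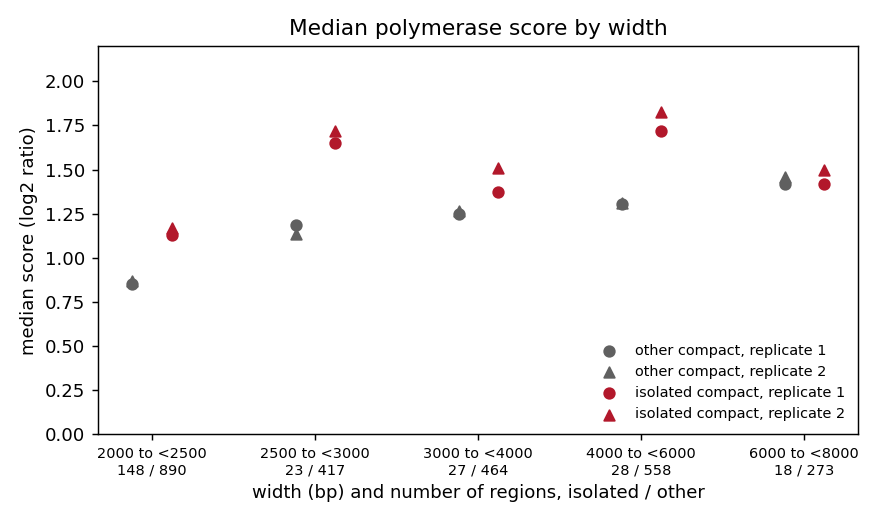
Median score (log2 ratio) of isolated (red) and other (grey) compact regions in 5 width classes, with circles for replicate 1 and triangles for replicate 2. The numbers of regions, isolated first, stand under each class, and the red symbols lie above the grey ones in every class but the widest, where they nearly coincide.

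The 5 widest isolated regions had moderate scores. The widest, 7917 bp on 2L (16349824 to 16357740), scored 1.50 in replicate 1, where it was 1 region. In replicate 2 it was split into a part with 1.23 (16350452 to 16354075) and a part with 2.09 (16354211 to 16357719). A 7881 bp region on 3R (1681194 to 1689074) was split in replicate 1 instead, into parts with 0.97 (1681118 to 1685361) and 2.04 (1685649 to 1689057), and scored 1.70 in replicate 2. In both, the part with the higher start position was the stronger.

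Another split region, 7741 bp on 2R (3162656 to 3170396), had parts with 1.32 and 0.56 in replicate 1 and a single region with 1.25 in replicate 2. The remaining 2 of the 5 widest were whole in each replicate. On 3R, 7735 bp (9604618 to 9612352) scored 1.45 and 1.42, and on 2R, 7719 bp (669506 to 677224) scored 1.34 and 1.26. In all, 8 members were split in at least one replicate, and 236 of 244 (96.7%) were a single region in each. Among the other compact regions 92.8% were. The split members were all at least 4711 bp wide, and isolated regions were narrower as a group. The part of width in this share was not tested.

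Overlap with both replicates was part of the rule, so the agreement of the edges is a description. Over the 236 whole regions the median offset between replicates was 43 bp at the start and 42 bp at the end. In 145 of them (61.4%) neither edge moved by more than 100 bp. For other compact regions matched 1 to 1 the medians were 62 and 61 bp, and 44.1% met the same limit. Widths differ between the groups, and the part of width in this difference was not tested.

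Scores ranked alike in the replicates, with a Spearman's rho of 0.941 over isolated regions and 0.939 over the others. These describe 2 libraries over regions that share them. The median difference, replicate 2 minus replicate 1, was 0.05 for isolated regions and 0.003 for the others. Replicate 2 was higher in 145 of the 244 (59.4%, beside 51.3% of all compact regions). This moved with the score: replicate 2 was higher in 28 of the 78 isolated regions under 1, in 64 of the 100 from 1 to 2 and in 53 of the 66 at 2 or above. The other compact regions showed the same order, with 38.3%, 52.5% and 74.6%.

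Large differences between replicates were few. In 14 isolated regions (5.74%, beside 3.51% of all compact regions) the replicates differed by over 0.5, and all 14 were higher in replicate 2. Over all compact regions 88 of the 100 such differences had that direction. The largest difference was 0.96, in a 2173 bp region on 2R (3037152 to 3039324) that scored 0.66 in replicate 1 and 1.62 in replicate 2. It was followed by 0.88 in a 3977 bp region on 3R (8044292 to 8048268), with 1.37 and 2.25. The strong 6827 bp region on 3L (6250910 to 6257736) came next with 0.83. Both regions named for the size of their difference were chosen after their values were seen.

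By the rule each side of a member was empty for at least 20 kb, so the distances are a description. The nearer neighbour lay a median of 32.7 kb away and the farther one 69.5 kb. For the nearer neighbour the 25th percentile was 24.9 kb, close to the limit. Both sides were empty for at least 50 kb around 61 members and for at least 100 kb around 12. Joined where they overlap, the stretches from neighbour to neighbour made up 27.4 Mb, or 28.4% of the 96.6 Mb of the 4 arms, and the members filled 2.70% of that sequence.

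The most isolated region was 2193 bp wide and lay on 3L (18390406 to 18392598), with 208.8 kb of empty sequence to its left and 221.2 kb to its right. It scored 1.14 in replicate 1 and 1.79 in replicate 2, so the replicates differed by 0.64. On 2L, a 2227 bp region (14688180 to 14690406) with gaps of 196.2 and 306.2 kb scored 2.05 and 2.01. Next came 2 weak regions on 3L: 2133 bp (13658910 to 13661042) with 0.59 and 0.74, and 2089 bp (10217178 to 10219266) with 0.64 and 0.55. The fifth, 4839 bp on 3R (1969226 to 1974064), scored 1.81 and 2.12. Weak and strong regions thus both occurred in the emptiest surroundings.

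Over all compact regions the median score was lowest where the nearer neighbour was close. It was 1.14 ± 0.009 with a neighbour within 2 kb. It was 1.20 ± 0.01 at a distance of 2 to 5 kb, 1.19 ± 0.02 at 5 to 10 kb and 1.30 ± 0.04 at 10 to 20 kb. Isolated regions with the nearer neighbour at 20 to 40 kb had 1.38 ± 0.06 (152 regions), and those at 40 kb or more had 1.24 ± 0.003 (92 regions). The order is therefore not steady: the most distant class scored lower than that at 20 to 40 kb in both replicates. Among the 244 members, distance and mean score had a Spearman's rho of -0.021.

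With width held to 2000 to 2500 bp the span was larger. The median score was 0.78 ± 0.003 with a neighbour within 2 kb. It was 0.85 ± 0.04 at a distance of 2 to 5 kb, 0.95 ± 0.02 at 5 to 10 kb and 1.19 ± 0.05 at 10 to 20 kb. It was 1.19 ± 0.03 for isolated regions at 20 to 40 kb and 1.09 ± 0.06 at 40 kb or more. Narrow regions at 10 to 20 kb and isolated ones at 20 to 40 kb thus had medians that differed by less than the spread between replicates. Over all compact regions the median was 0.06 higher in replicate 1 and 0.09 higher in replicate 2 at 20 to 40 kb than at 10 to 20 kb. The share with a mean score of at least 2 was also higher, at 29.6% against 20.6%, and among the narrow regions it was 22 of 88 against 21 of 116. At 40 kb or more this share was 22.8% over all compact regions, closer to the 20.6% at 10 to 20 kb. Among the narrow regions it was 21.7% at 40 kb or more and 18.1% at 10 to 20 kb. The median width also changed with distance, from 3234 bp within 2 kb to 2308 bp at 40 kb or more.

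**Figure D4:**
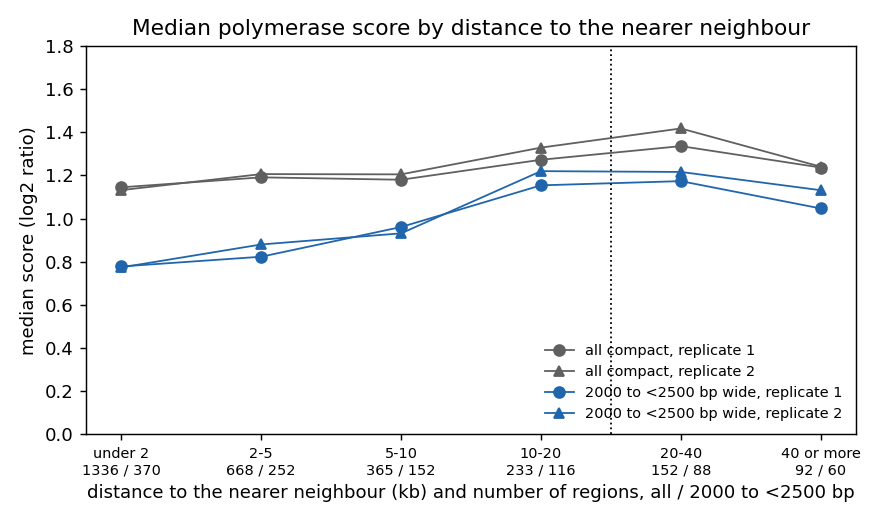
Median score (log2 ratio) by distance to the nearer neighbour in kb, for all compact regions (grey) and those 2000 to 2500 bp wide (blue), with circles for replicate 1 and triangles for replicate 2. Classes to the right of the dotted line are isolated, and the blue values rise from 0.78 at under 2 kb to 1.19 at 10 to 20 kb and are 1.09 at 40 kb or more.

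The values on each side of the limits were as follows. The narrowest members, at 2001, 2001 and 2003 bp, had mean scores of 0.43, 0.45 and 0.64, and the widest regions below the limit that met the other criteria, at 1995, 1993 and 1989 bp, had 0.40, 0.35 and 0.38. At the upper limit the members at 7741 to 7917 bp scored 1.15 to 1.58, and isolated regions just wider scored 1.90 (8043 bp), 2.29 (8107 bp) and 3.90 (8299 bp). In distance, the members nearest to the limit, at 20003, 20051 and 20073 bp, scored 1.58, 0.59 and 0.47, whereas compact regions at 19973, 19939 and 19637 bp scored 1.05, 1.32 and 1.78. Besides the 244 compact ones, 26 isolated regions in both replicates were under 2000 bp wide and 19 were 8000 bp or wider.

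The neighbours across the gaps were of all width classes. The members had 462 different neighbours, of which 328 were in the width range of the members, 100 were narrower and 34 were wider. Of all 4186 regions of the 4 arms, 2942 were in that range. Of these neighbours 386 (83.5%) overlapped both replicates and 32 (6.93%) neither, compared with 81.2% and 8.89% of all regions of the 4 arms. Of the nearer neighbours, counted once per member, 12 of 244 (4.92%) were found in neither replicate, beside the 8.89% of all regions.

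Some members were next to each other in the list. A neighbour of a member has one empty side by the rule itself, so these counts are a description. Of the 244, 136 stood between neighbours that were not members themselves, and 108 lay in rows of 2 to 5 consecutive members: 26 rows of 2, 13 of 3, 3 of 4 and 1 of 5. The row of 5 spanned 185.0 kb on 2L (5723650 to 5908602). Its regions, in order, scored 1.36, 0.56, 2.29, 1.81 and 0.84 in replicate 1 and 1.03, 0.58, 2.45, 2.07 and 0.58 in replicate 2. The third was 5367 bp wide and the others were 2199 to 2729 bp, so the strongest of the row was also its widest.

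The longest row by span held 4 members over 293.2 kb on 3L (10217178 to 10510358). Scores there were 0.64, 2.65, 1.02 and 2.00 in replicate 1 and 0.55, 2.78, 1.03 and 1.89 in replicate 2, so weak and strong regions alternated. Both rows were chosen for their length after the values were seen.

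In 238 of the 244 members the 20 kb flanks held no region of either replicate list. The rule required flanks empty in the series list, which comes from the same libraries, so this count is a description. A weak region of replicate 1 lay in the flank of 2 members on 2R (4684678 to 4687176 and 14242984 to 14245930), with scores of 0.33 and 0.35 at 1.32 and 0.45 kb. Replicate 2 had such a region beside 4 members. They were on 2L (5798824 to 5804190, with 0.06), on 3L (12903818 to 12907822, with 0.14) and on 3R (25416656 to 25419094 and 25443904 to 25445932, which share 1 with 0.51). A region that the series list names as depleted lay 0.38 kb from a member on 3L (21125634 to 21130178), with a score of -0.01. These regions were named because the counts are small.

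All 4 arms held isolated regions at a similar density. There were 63 on 2L, 55 on 2R, 60 on 3L and 66 on 3R, or 2.74, 2.60, 2.44 and 2.37 per Mb. The density of all compact regions was more uneven, at 36.3 per Mb on 2R and 26.7 to 28.5 on the others. The isolated share was accordingly lowest on 2R, at 7.17%, and 8.29% to 10.3% elsewhere.

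The difference in score was not alike on the arms. On 3L the isolated regions had medians of 1.44 and 1.67, against 1.19 and 1.19 for other compact regions, a difference of 0.37 ± 0.16. The differences were 0.19 ± 0.02 on 2L and 0.17 ± 0.05 on 3R. On 2R the medians were 1.19 and 1.23 against 1.18 and 1.19, a difference of 0.02 ± 0.01. All 8 differences, on 4 arms in 2 replicates, were above 0, and on 2R they were at most 0.03. Whether the arms differ was not tested.

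Along the arms the members were spread from end to end. With each arm cut into deciles of its length from the centromere end and the 4 arms added up, every decile held 18 to 31 members, and their share of compact regions ran from 6.69% to 11.8%. The highest shares in single arms were in the fourth decile of 2L, with 7 of 31 compact regions (22.6%), and in the fifth decile of 3L, with 9 of 45.

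**Figure D5:**
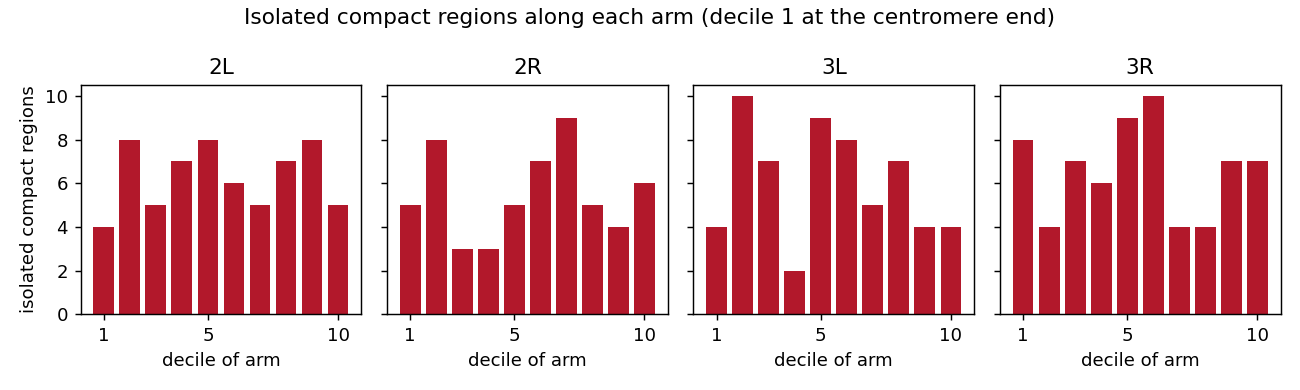
Number of isolated compact regions in each decile of the length of the arms 2L, 2R, 3L and 3R, counted from the centromere end. Every decile of every arm holds between 2 and 10 of them.

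Applied to each replicate list on its own, with overlap of the other replicate required, the rule found 270 isolated compact regions in replicate 1 and 281 in replicate 2 (275.5 ± 7.8, n = 2). They were 9.06% and 9.36% of the compact regions. Of the 244 members, 220 (90.2%) overlapped an isolated region of replicate 1 and 223 (91.4%) one of replicate 2. In the other direction 81.5% and 79.4% of the isolated regions of the replicates were among the members.

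The same features were found in these lists. The median width of isolated regions was 2372 and 2283 bp, against 2841 and 2780 bp for other compact regions, and 57.4% and 60.5% were under 2500 bp wide, against 37.4% and 39.9%. Median scores were 1.36 and 1.39, against 1.22 and 1.22, a difference of 0.16 ± 0.02. Scores of at least 2 were held by 25.2% and 29.9% of isolated and by 14.4% and 18.0% of other regions. These lists come from the same 2 libraries as the members and are no independent test of them.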

How the data were processed

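Region lists of 2 ChIP replicates and of the series as a whole were used, and the 2 input libraries were not analysed here. The submitters' processing notes name Bowtie 0.12.7 for alignment, and positions are on FlyBase r5, per the file headers. How regions were called, at which thresholds, and how replicates were pooled is not given in the sources used here. The score that the authors deposited for each region was read as log2: scores that recur in a list differed by the log2 of a ratio of whole numbers of at most 40 (tolerance 1e-07) in 546 of 13366, 378 of 4851 and 433 of 5356 pairs in replicate 1, replicate 2 and the series list, against at most 6 with another base. Depth is unknown, so no interval rests on it.

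Groups and replicate numbers came from the sample titles. The rule and all measures were computed in Python 3.11.15 with pandas 2.3.3 and numpy 2.4.6, and the rule was tested on simulated data. An overlap is at least 1 bp, and a distance counts the bases between 2 regions. The members, the width and distance classes and the limits of 2 for strong scores and 0.5 for differences were chosen with earlier results of these data known. Regions named are the 10 highest, 5 lowest, 5 widest and 5 most isolated members and the 3 regions on each side of every limit, besides those said to be chosen afterwards. Gene annotation on this build was not used, so neither genes nor sequences are given.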

Additional observations from a re-analysis of the deposited data

How the results depend on the processing

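Over 11 alternatives for 6 results, 44 of 62 values stayed within the limits set for them. These limits were 1.5 times the count, 1 SD of the replicates or the 95% binomial interval of the share or median. That interval counts each region as a separate draw, although all were measured in 2 ChIP libraries. It therefore served only as a fixed limit. Every alternative also used lists made from these 2 libraries, so the tally describes the choice of settings and is no test of the results. Counts, shares and widths cannot change sign, and median scores of enriched regions were not likely to. A change was open to the differences between groups and between replicates, and neither changed sign. The 2 settings with each replicate list as the base, and the one that counts as neighbours only regions found in both replicates, were chosen after seeing the data. Distances of 10 and 40 kb gave 477 and 92 isolated regions (16.8% and 3.23% of compact regions). At 40 kb the median score was 1.24 and its difference from other compact regions 0.053. Keeping regions above the median score, a selection by score, gave 433 regions (24.96%) with a median score of 1.67, a difference of 0.13 and a median width of 2921 bp. Merging within 500 bp moved the share to 10.4% and the difference to 0.13. Counting as neighbours only regions found in both replicates moved the share to 11.2% and the median width to 2400 bp. The replicate 2 list as the base gave a median score of 1.39 and a width of 2283 bp. Leaving out the overlap and score of 1 replicate gave 244 to 249 regions and shares of 8.47% to 8.62%. Median scores were then 1.32 to 1.36 and differences 0.15 to 0.19. Regions, widths and distances still came from the series list, so this was not a list made without that replicate. Apart from the selection by score, the cause of these shifts was not tested here.

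No paired analysis was possible because the input libraries gave no values to pair with the ChIP libraries, which are 1 group. At an unknown depth, empty flanks are empty of reported regions only.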
